A study of Mus musculus with 28 samples.

Results

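The SERCA pumps and their small regulators sarcolipin and phospholamban were measured by RNA sequencing in tibialis anterior muscle of 28 mice, in 7 groups of 4 mice. The genes are *Atp2a1*, *Atp2a2* and *Atp2a3*, which encode the 3 pumps, and *Sln* and *Pln*, which encode the 2 regulators, and they are 5 of the 55416 gene identifiers of the Dnm2 cohort and of the 55359 of the Bin1 cohort. *Sln* came to attention through its higher level in placebo-treated Dnm2 S619L/+ mice than in placebo-treated WT mice, so the set was chosen by that difference, and the other genes were added as the pump family and the related regulator. That comparison is therefore described for the 5 genes with no test. For *Sln*, 3 further values that use the same placebo mice are also given with no test. The 5 genes and the gene lists below were chosen with earlier results of these data known. Tests and list counts are therefore not fully independent of that choice.

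The mice were 8 weeks old and of the C57BL/6N strain, and the labels do not give their sex. In the Dnm2 cohort, WT mice and Dnm2 S619L/+ mice, heterozygous for a point mutation of the membrane-cutting GTPase dynamin 2, received placebo or tamoxifen, a ligand of the estrogen receptor. In the Bin1 cohort, WT mice received placebo and Bin1 mck-/- mice, which lack the membrane-bending protein amphiphysin 2 where the muscle creatine kinase promoter drives Cre, received placebo or tamoxifen. Both models are studied for centronuclear myopathy. The Bin1 cohort holds no WT mice on tamoxifen, so an interaction of genotype and treatment could be tested in the Dnm2 cohort only. Counts on genes ranged from 15586333 to 109710886 per mouse in the Dnm2 cohort and from 24671835 to 35136327 in the Bin1 cohort. The labels give an RNA input of 300 ng fragmented for 2 min in the Dnm2 cohort, and 350 ng for 8 min in the Bin1 cohort. Cohort and library protocol therefore cannot be told apart, and comparisons were made within a cohort. Comparisons of a cohort share mice, so they are not independent of each other.

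SERCA pumps move calcium from the cytosol back into the sarcoplasmic reticulum, the calcium store of the muscle fiber, and so let the fiber relax. *Atp2a1* encodes the pump of fast fibers, *Atp2a2* that of slow fibers and heart with a form found in most cells, and *Atp2a3* a pump known from blood cells, endothelium and epithelia. Sarcolipin and phospholamban are short proteins of the reticulum membrane that bind the pump and slow calcium uptake, and in mice sarcolipin is best known from the atria and from slow or diseased muscle.

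In the GENCODE M21 annotation of the GRCm38 mouse genome, *Sln* (ENSMUSG00000042045) lies on chromosome 9 from 53850164 to 53854560 and encodes 31 codons, and *Pln* (ENSMUSG00000038583) lies on chromosome 10 from 53337667 to 53345987 and encodes 52 codons. *Atp2a1* (ENSMUSG00000030730) lies on chromosome 7 from 126445858 to 126463108, *Atp2a2* (ENSMUSG00000029467) on chromosome 5 from 122453513 to 122502225 and *Atp2a3* (ENSMUSG00000020788) on chromosome 11 from 72961169 to 72993044. Their longest coding sequences have 994, 1044 and 1038 codons.

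The tissue label was checked against 6 skeletal muscle markers (*Acta1*, *Ckm*, *Ttn*, *Neb*, *Des* and *Mb*). Their summed level, in CPM (counts scaled to a common library size, here by TMM), averaged between 55289 in WT mice on tamoxifen and 87960 in WT mice of the Bin1 cohort, and *Acta1*, skeletal actin, was the most abundant in each group. The targeted gene *Bin1* was at 549, 521, 533 and 556 CPM in WT mice of its cohort (540 ± 15.7, mean ± SD, n = 4), at 62.1, 51.6, 52.2 and 58.8 CPM in Bin1 mck-/- mice on placebo (56.2 ± 5.10, 10.4% of WT) and at 41.3, 36.1, 49.5 and 36.9 CPM on tamoxifen (40.9 ± 6.16, 7.58% of WT). In the Dnm2 cohort the *Bin1* gene averaged 500 ± 9.27 CPM in WT mice on placebo, 404 ± 70.1 on tamoxifen, 874 ± 157 in Dnm2 S619L/+ mice on placebo and 615 ± 104 on tamoxifen. *Dnm2*, whose point mutation leaves no trace in counts, averaged between 62.7 and 76.0 CPM among the 7 groups.

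The scale matters for small differences. TMM scaling put the median log2 ratio of all genes between -0.04 and 0.03 in the 7 comparisons of 2 groups. With plain library totals this median moved to 0.30 for Dnm2 S619L/+ against WT on placebo, to 0.25 for tamoxifen in WT, to 0.14 for Bin1 mck-/- against WT on placebo and to -0.16 for tamoxifen in Bin1 mck-/- mice. With library sizes that leave out mitochondrial reads it was 0.16, 0.15, 0.16 and -0.18 in the same order. Mitochondrial genes held 13.6% to 25.7% of counts in the Dnm2 cohort and 7.86% to 11.6% in the Bin1 cohort. WT mice on placebo stood apart in the Dnm2 cohort, with mitochondrial shares of 19.6% to 25.7%, against 13.6% to 19.0% in its other mice. Their TMM factors were 0.81 to 0.90, against 0.96 to 1.16, and they held both the shallowest and the deepest library of the cohort. TMM values are used below, and each difference of the 5 genes whose sign turned on another scale is named where it is given. List genes and list medians were not computed on the other scales, so list medians smaller than these shifts have no firm sign. Because the muscle was sequenced in bulk, fewer cells of a type and less RNA per cell cannot be told apart.

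*Sln* was almost silent in WT muscle. In WT mice on placebo of the Dnm2 cohort it was at 1.02, 0.34, 0.474 and 1.43 CPM (0.817 ± 0.504, n = 4), which rested on 101, 12, 6 and 64 reads. WT mice on tamoxifen had 1.31, 1.02, 2.02 and 2.17 CPM (1.63 ± 0.556). Both WT groups overlapped, with 2 of 4 treated mice above every WT mouse on placebo. Dnm2 S619L/+ mice on placebo had 129, 55.0, 12.4 and 90 CPM (71.5 ± 49.5), and those on tamoxifen had 144, 72.0, 87.3 and 34.4 CPM (84.4 ± 45.5). Each of these 8 mutant mice lay above each of the 8 WT mice of the cohort, and levels within a mutant group spread widely, since mouse 3 on placebo had 12.4 CPM and mouse 1 had 129 CPM.

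The order of *Sln* in the Dnm2 cohort was WT on placebo, WT on tamoxifen, Dnm2 S619L/+ on placebo, Dnm2 S619L/+ on tamoxifen, and the last 2 groups differed by less than the SD within a group. On placebo the mutant mean was 87.5 times that of WT, a log2 difference of 6.23 (SE 0.71), which is a description because this comparison brought the gene to attention. On tamoxifen the mutant mean was 51.8 times that of WT, with 4 of 4 mutant mice above the 4 WT mice. *Sln* rose there by 5.67 on the log2 scale (SE 0.68, edgeR adjusted p = 0.000431). Leaving out 1 mouse at a time kept this value between 5.29 and 5.94, and the adjusted p of the other settings ranged from 5.22e-16 with DESeq2 to 0.00269 with edgeR. Tamoxifen itself came with log2 differences of *Sln* of 0.80 in WT (SE 0.70) and 0.24 in Dnm2 S619L/+ mice (SE 0.53), and the interaction was -0.56 (SE 0.88), all described with no test. The value of 0.24 turned to -0.11 without mouse 3 of the Dnm2 S619L/+ placebo group and to -0.15 without mouse 1 of the Dnm2 S619L/+ tamoxifen group.

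In the Bin1 cohort, WT mice had 1.23, 2.68, 2.21 and 2.80 CPM of *Sln* (2.23 ± 0.714, n = 4). Bin1 mck-/- mice on placebo had 43.8, 43.4, 15.2 and 107 CPM (52.5 ± 39), and those on tamoxifen had 7.63, 7.89, 9.47 and 18.1 CPM (10.8 ± 4.95). Neither Bin1 mck-/- group overlapped WT, while 3 of the 4 treated mice lay below every untreated one and mouse 4 on tamoxifen, at 18.1 CPM, exceeded mouse 3 on placebo, at 15.2 CPM. The order was WT, Bin1 mck-/- on tamoxifen, Bin1 mck-/- on placebo, and both gaps exceeded the larger SD. *Sln* rose in Bin1 mck-/- mice on placebo by 4.52 on the log2 scale (SE 0.62, edgeR adjusted p = 0.0119), to 23.5 times the WT mean. The edgeR adjusted p was 0.0549 without WT mouse 6 and 0.0512 without WT mouse 8, with log2 differences of 4.62 and 4.65, and the other settings ranged from 2.53e-13 with DESeq2 to 0.0148 with edgeR.

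Between treated and untreated Bin1 mck-/- mice the *Sln* mean differed 4.87-fold, being lower on tamoxifen, at 20.5% of the untreated level. The log2 difference was -2.28 (SE 0.55), and its edgeR adjusted p of 0.0555 missed the threshold of 0.05. DESeq2 gave an adjusted p of 0.00153, edgeR gave 0.148 when the fit held the compared groups only, and leaving out mouse 3 of the Bin1 mck-/- placebo group gave 0.0157. Treated Bin1 mck-/- mice were at 4.83 times the WT mean, a log2 difference of 2.25 (SE 0.59, edgeR adjusted p = 0.116). For that difference the settings ranged from 0.00358 with DESeq2 to 0.192 with edgeR, with 0.0143 when the fit held the compared groups only. It was 0.0437 and 0.0439 with edgeR without mouse 3 and mouse 4 of the Bin1 mck-/- placebo group, which belong to neither group compared. Here genotype and treatment change together.

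**Figure D1:**
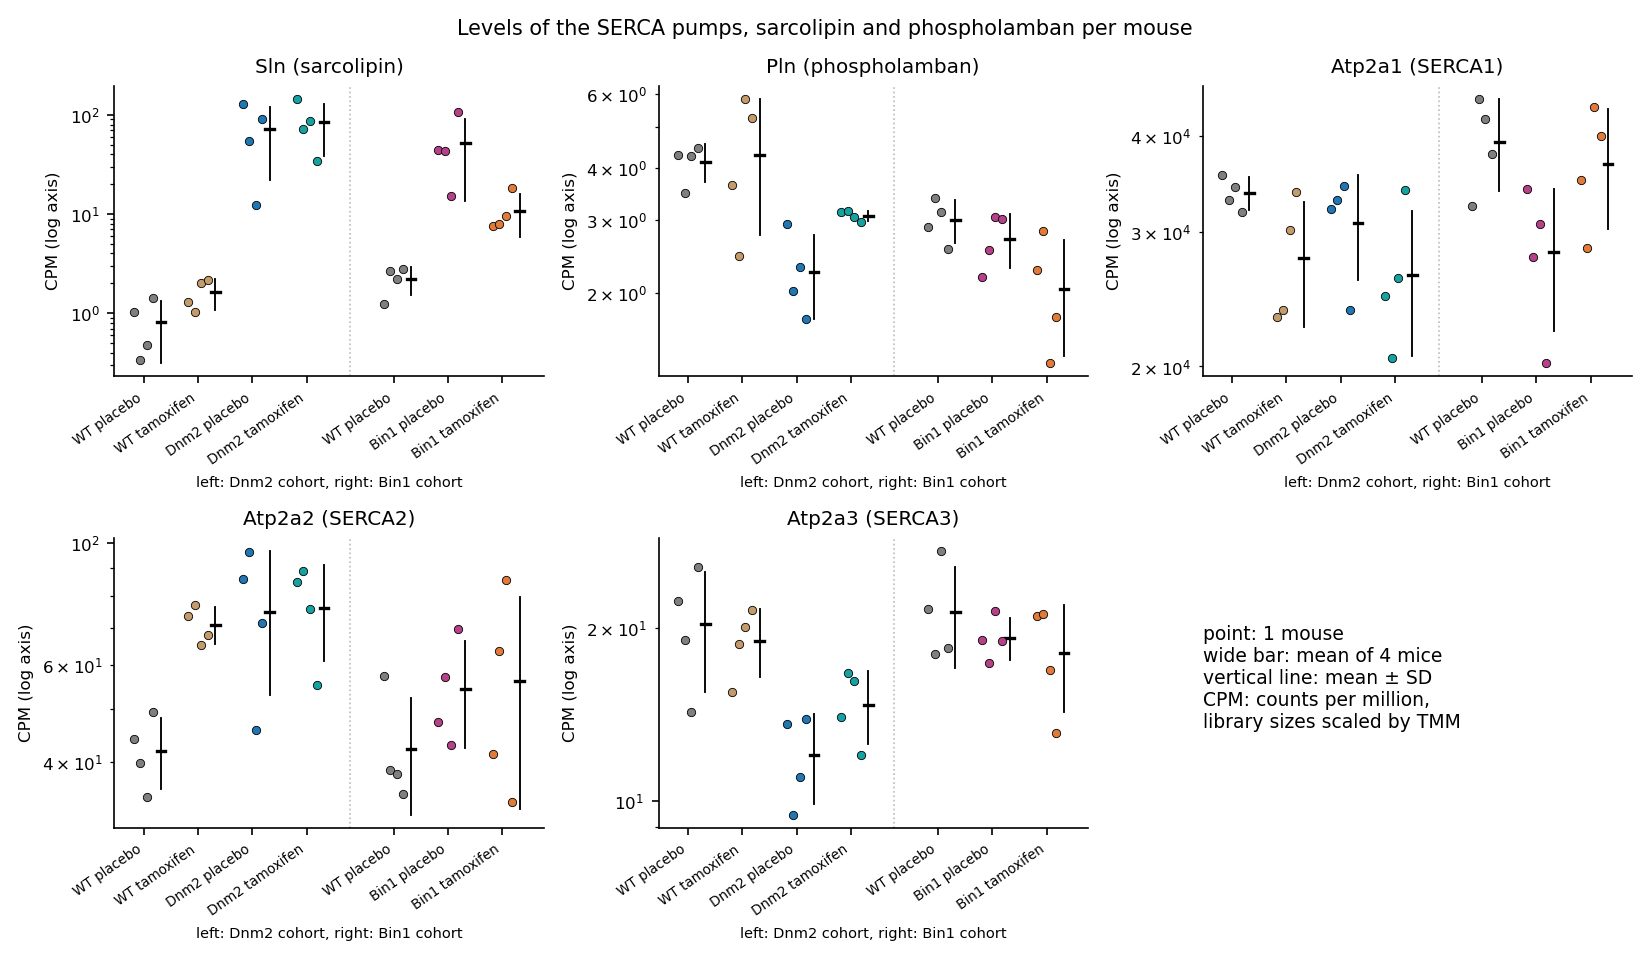
Levels of the 5 genes in each of the 28 mice, in CPM on log axes, by group (points are mice, the wide bar is the mean and the line the SD, n = 4). *Sln* lies between 0.34 and 2.80 CPM in the WT mice and between 7.63 and 144 CPM in the mutant mice, while *Atp2a1* lies between 20172 and 44688 CPM throughout.

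*Pln*, the regulator best known from heart and slow muscle, was at a low level in every group. In the Dnm2 cohort WT mice on placebo had 4.30, 3.48, 4.27 and 4.47 CPM (4.13 ± 0.441, n = 4) and WT mice on tamoxifen had 3.64, 2.46, 5.84 and 5.25 CPM (4.30 ± 1.54). Dnm2 S619L/+ mice on placebo had 2.93, 2.02, 2.31 and 1.74 CPM (2.25 ± 0.510) and those on tamoxifen had 3.13, 3.15, 3.05 and 2.96 CPM (3.07 ± 0.0845). The order was Dnm2 S619L/+ on placebo, Dnm2 S619L/+ on tamoxifen, WT on placebo, WT on tamoxifen, and the 2 WT groups differed by less than their spread. Untreated mutant mice, at 54.5% of the WT mean, did not overlap untreated WT mice, and the log2 difference of -0.85 (SE 0.23) is a description. The treated mutant mice all lay above the untreated ones, but the log2 difference of 0.43 (SE 0.24) did not pass edgeR (adjusted p = 0.257). Mutant against WT on tamoxifen gave -0.47 (SE 0.23, edgeR adjusted p = 0.295), tamoxifen in WT gave 0.05 (SE 0.23, edgeR adjusted p = 0.892), and the interaction was 0.38 (SE 0.33, edgeR adjusted p = 0.657). The value of 0.05 was -0.02 without mouse 2 of the WT placebo group, and -0.13 and -0.06 without mouse 3 and mouse 4 of the WT tamoxifen group.

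Among mice of the Bin1 cohort *Pln* was at 2.88, 3.38, 3.14 and 2.56 CPM in WT (2.99 ± 0.349, n = 4), at 2.19, 2.54, 3.04 and 3.01 CPM in Bin1 mck-/- mice on placebo (2.70 ± 0.406) and at 2.27, 2.82, 1.36 and 1.75 CPM on tamoxifen (2.05 ± 0.634). The groups overlapped, and untreated Bin1 mck-/- mice and WT mice differed by less than the SD. Their log2 ratio of means of -0.15 was -0.01 with plain totals and 0.01 without mitochondrial reads, so it has no firm sign. No *Pln* difference of this cohort passed edgeR, with log2 values of -0.14 for Bin1 mck-/- against WT on placebo (SE 0.25, adjusted p = 0.788), -0.38 for tamoxifen in Bin1 mck-/- mice (SE 0.25, adjusted p = 0.393) and -0.53 for treated Bin1 mck-/- mice against WT (SE 0.25, adjusted p = 0.33). The span of *Pln* overlaps those of *Cep85l* and *Gm47644*, and since the strand setting of the read counting is not given, reads of an overlapping gene cannot be told apart from its own. The same limit holds for *Atp2a1*, whose span overlaps that of *Rabep2*.

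*Atp2a1*, the fast-fiber pump, was high in all 28 mice, from 20172 to 44688 CPM. In the Dnm2 cohort WT mice on placebo had 35612, 33044, 34329 and 31772 CPM (33689 ± 1653, n = 4) and WT mice on tamoxifen had 23217, 23695, 30234 and 33773 CPM (27730 ± 5146). Dnm2 S619L/+ mice on placebo had 32067, 33039, 34414 and 23737 CPM (30814 ± 4815) and those on tamoxifen had 24659, 20489, 26083 and 33984 CPM (26304 ± 5644). Groups overlapped throughout, and neighbours in the order, from treated mutant through treated WT and untreated mutant to untreated WT, differed by less than the larger SD. For mutant against WT on placebo the log2 difference was -0.13 (SE 0.17), and its sign turned to 0.13 with plain totals. The tested log2 differences were -0.28 for tamoxifen in WT (SE 0.17), -0.23 for tamoxifen in Dnm2 S619L/+ mice (SE 0.17), -0.08 for mutant against WT on tamoxifen (SE 0.17) and 0.05 for the interaction (SE 0.24), and edgeR gave adjusted p of 0.223, 0.421, 0.847 and 0.953. Leaving out 1 mouse turned the sign of the last 2, with ranges from -0.22 to 0.04 and from -0.09 to 0.16. The first turned without mouse 4 of the WT tamoxifen group or mouse 2 of the Dnm2 S619L/+ tamoxifen group, and the interaction without mouse 1 or 2 of the WT tamoxifen group, mouse 4 of the Dnm2 S619L/+ placebo group or mouse 4 of the Dnm2 S619L/+ tamoxifen group. For tamoxifen in WT the log2 ratio of means was -0.10 without mitochondrial reads. With plain totals the treated and untreated WT means were close, at 28729 and 28797 CPM.

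Across the Bin1 cohort *Atp2a1* was at 32354, 44688, 42115 and 37936 CPM in WT (39273 ± 5387, n = 4), at 34069, 27785, 30717 and 20172 CPM in Bin1 mck-/- mice on placebo (28186 ± 5927) and at 34966, 28609, 43743 and 39987 CPM on tamoxifen (36826 ± 6552). Untreated Bin1 mck-/- mice were lowest, at 71.8% of the WT mean with 3 of 4 below every WT mouse, and treated Bin1 mck-/- and WT mice differed by less than the SD. The difference between untreated Bin1 mck-/- and WT mice, -0.48 on the log2 scale (SE 0.19), had an unadjusted p of 0.0218 and did not pass edgeR (adjusted p = 0.165), and DESeq2 gave an adjusted p of 0.0687. For tamoxifen in Bin1 mck-/- mice it was 0.39 (SE 0.19, edgeR adjusted p = 0.255), with 3 of 4 treated mice above every untreated one. Treated Bin1 mck-/- mice against WT gave -0.09 (SE 0.19, edgeR adjusted p = 0.861), which was 0.01 without mouse 2 of the treated group.

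*Atp2a2*, the pump of slow fibers and of most cells, was the pump gene whose level rose with tamoxifen in WT muscle. WT mice of the Dnm2 cohort had 44.1, 39.8, 34.5 and 49.2 CPM on placebo (41.9 ± 6.23, n = 4) and 73.7, 77.2, 65.1 and 68.1 CPM on tamoxifen (71.0 ± 5.43). The treated mice all lay above the untreated ones, 1.7-fold by the means, and the rise of 0.76 on the log2 scale passed the test (SE 0.19, edgeR adjusted p = 0.00935). It passed without any 1 mouse of the cohort, with edgeR adjusted p from 0.0021 to 0.0314, and in the other settings, from 0.00104 to 0.013 with edgeR and 0.00202 with DESeq2, and its sign was the same on the other scales. WT mice on placebo, the low group here, also had the highest mitochondrial shares of the cohort (19.6% to 25.7%). The part of this in the rise was not tested.

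Dnm2 S619L/+ mice had 86.0, 96.1, 45.8 and 71.4 CPM of *Atp2a2* on placebo (74.8 ± 21.9, n = 4) and 84.8, 88.8, 75.7 and 55.2 CPM on tamoxifen (76.1 ± 15.0). These groups and treated WT mice overlapped and differed by less than the SD, so untreated WT mice stood apart as the lowest group, although mouse 3 of the untreated mutants, at 45.8 CPM, reached into their range. On placebo the mutant mean was 1.79 times that of WT, a log2 difference of 0.83 (SE 0.19) given as a description. Tamoxifen in Dnm2 S619L/+ mice gave 0.02 (SE 0.19, edgeR adjusted p = 0.957), a value that left-out mice moved between -0.15 and 0.17, with a negative sign without mouse 3 of the placebo group or mouse 1 or 2 of the treated group. Mutant against WT on tamoxifen gave 0.10 (SE 0.19, edgeR adjusted p = 0.825). The interaction, the test of whether tamoxifen acted differently in the 2 genotypes, was -0.73 (SE 0.27) with an unadjusted p of 0.0161, and it did not pass edgeR (adjusted p = 0.278). Without mouse 3 of the Dnm2 S619L/+ placebo group it was -0.91 with an edgeR adjusted p of 0.0445. The other mice left out gave up to 0.452 with edgeR, and the other settings from 0.198 with DESeq2 to 0.443 with edgeR.

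For the Bin1 cohort, *Atp2a2* was at 57.2, 38.7, 38.1 and 35 CPM in WT (42.2 ± 10.1, n = 4), at 47.3, 57.0, 42.9 and 69.8 CPM in Bin1 mck-/- mice on placebo (54.3 ± 11.9) and at 41.3, 63.7, 85.7 and 33.9 CPM on tamoxifen (56.2 ± 23.4). All 3 groups overlapped, with WT mouse 5 far above the other WT mice and a 2.83-fold span over all 28 mice of both cohorts. The log2 difference of Bin1 mck-/- against WT was 0.36 on placebo (SE 0.28, edgeR adjusted p = 0.51) and 0.41 for treated Bin1 mck-/- mice (SE 0.28, edgeR adjusted p = 0.52). Tamoxifen in Bin1 mck-/- mice gave 0.05 (SE 0.27, edgeR adjusted p = 0.939), and the ratio of means turned to -0.12 with plain totals and -0.14 without mitochondrial reads. Its sign also turned without mouse 1 or 3 of the Bin1 mck-/- placebo group or mouse 2 or 3 of the treated group, within a range from -0.23 to 0.23. The spans of the annotated genes *Gm43359*, *Gm43360* and *Gm43361* overlap that of *Atp2a2*, with the limit given for *Pln*.

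*Atp2a3*, the pump of blood cells and endothelium, was at 22.3, 19.1, 14.3 and 25.6 CPM in WT mice on placebo of the Dnm2 cohort (20.3 ± 4.80, n = 4) and at 15.5, 18.8, 20.1 and 21.5 CPM on tamoxifen (19.0 ± 2.57). Dnm2 S619L/+ mice had 13.6, 9.45, 11 and 13.9 CPM on placebo (12.0 ± 2.14) and 14.0, 16.7, 16.2 and 12.0 CPM on tamoxifen (14.7 ± 2.16). The order was untreated mutant, treated mutant, treated WT, untreated WT, and the 2 WT groups differed by less than their spread. Untreated mutant mice lay below every untreated WT mouse, at 59.1% of the WT mean, a log2 difference of -0.76 (SE 0.18) given as a description. Mutant against WT on tamoxifen gave -0.36 (SE 0.17, edgeR adjusted p = 0.286), tamoxifen in Dnm2 S619L/+ mice gave 0.29 (SE 0.18, edgeR adjusted p = 0.314), and the interaction was 0.40 (SE 0.25, edgeR adjusted p = 0.511). For tamoxifen in WT the value was -0.11 (SE 0.17, edgeR adjusted p = 0.683), 0.02 without mouse 4 of the WT placebo group, and the ratio of means was 0.17 with plain totals and 0.08 without mitochondrial reads.

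Within the Bin1 cohort *Atp2a3* was at 21.6, 18.0, 27.3 and 18.5 CPM in WT (21.3 ± 4.25, n = 4), at 19.1, 17.4, 21.4 and 19.0 CPM in Bin1 mck-/- mice on placebo (19.2 ± 1.64) and at 21.0, 21.2, 16.9 and 13.1 CPM on tamoxifen (18.1 ± 3.85). Neighbouring groups differed by less than the SD. With edgeR the log2 differences were -0.15 for Bin1 mck-/- against WT on placebo (SE 0.16, adjusted p = 0.653), -0.09 for tamoxifen in Bin1 mck-/- mice (SE 0.16, adjusted p = 0.799, 0.04 without mouse 4 of the treated group) and -0.24 for treated Bin1 mck-/- mice against WT (SE 0.16, adjusted p = 0.52).

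**Figure D2:**
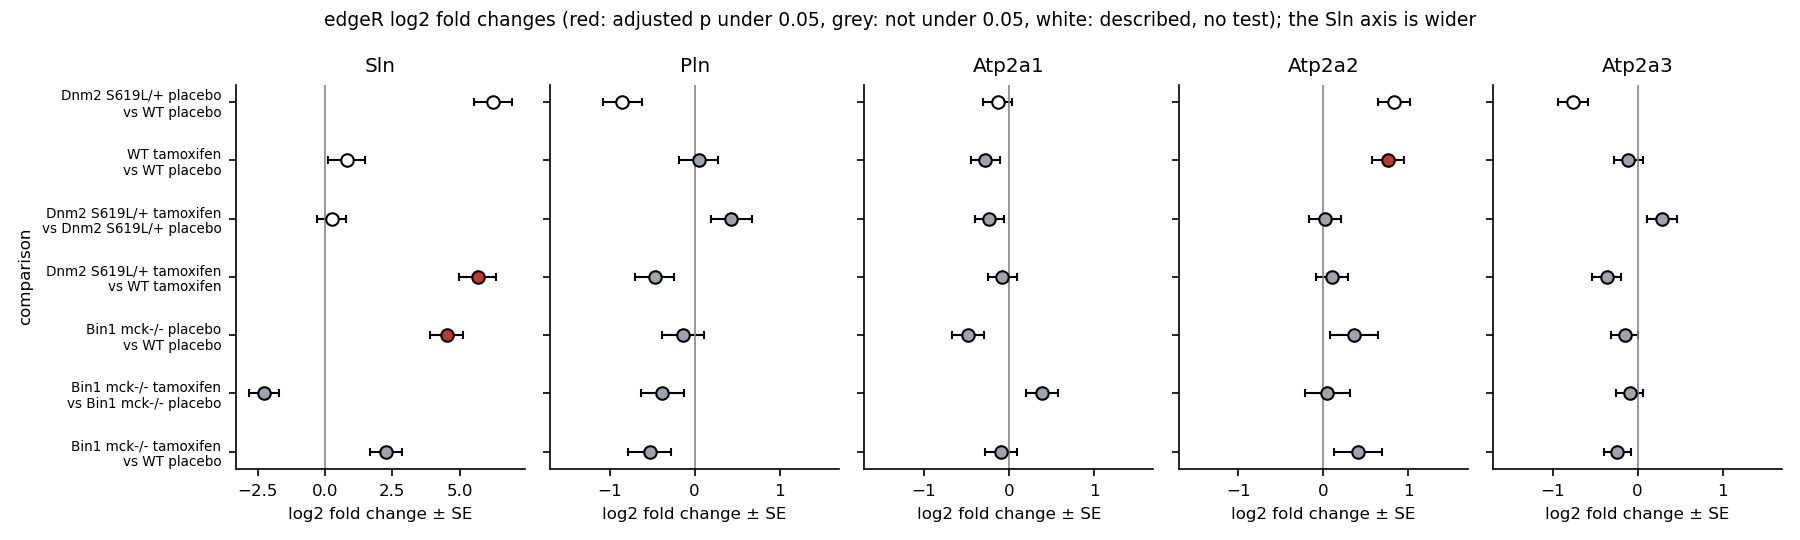
Log2 fold changes with SE from edgeR for the 5 genes in 7 comparisons, where the *Sln* axis is wider than the others. Filled red points passed an adjusted p of 0.05, grey points did not, and white points are descriptions with no test: *Sln* reaches 5.67 on tamoxifen and 4.52 in Bin1 mck-/- mice, and *Atp2a2* reaches 0.76 with tamoxifen in WT.

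Levels of different genes were set side by side as CPM per kilobase of exon. On that scale *Atp2a1* made up between 99.7% and 99.9% of the summed level of the 3 pump genes in each of the 28 mice. *Atp2a2* was 1.82 times the per-kilobase level of *Atp2a3* in WT mice on placebo of the Dnm2 cohort, 3.31 times in WT mice on tamoxifen, 5.6 times in Dnm2 S619L/+ mice on placebo and 4.48 times in those on tamoxifen. In the Bin1 cohort this per-kilobase ratio was 1.76 in WT, 2.48 in untreated and 2.74 in treated Bin1 mck-/- mice. So the minor pump genes shifted toward *Atp2a2* in the mutant and treated groups of the Dnm2 cohort, as a description with no test.

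The mean per-kilobase level of *Sln* relative to *Pln* was below 1 in the WT groups of the Dnm2 cohort and above 1 in the other groups. These include WT mice of the Bin1 cohort, whose lowest mouse was at 0.894. Per kilobase of exon *Sln* was 0.401 ± 0.223 times *Pln* in WT mice on placebo of the Dnm2 cohort, 0.803 ± 0.0752 times on tamoxifen, 67.1 ± 42.9 times in Dnm2 S619L/+ mice on placebo and 57.1 ± 30.1 times in those on tamoxifen (n = 4 each). In the Bin1 cohort the same per-kilobase ratio was 1.58 ± 0.575 in WT, 40.7 ± 26.4 in untreated and 12.3 ± 7.32 in treated Bin1 mck-/- mice. Against *Atp2a2*, the per-kilobase ratio of *Sln* was 0.086 and 0.108 in the WT groups of the Dnm2 cohort, 4.15 and 4.94 in the mutant groups, and 0.264, 4.13 and 1.1 in the WT, untreated and treated groups of the Bin1 cohort. Per kilobase of coding sequence this ratio was 0.628, 0.791, 30.3 and 36.1 in the Dnm2 cohort and 1.93, 30.2 and 8.02 in the Bin1 cohort, in the same order. Against all pump genes together *Sln* stayed minor, since its per-kilobase level was 0.647% ± 0.461 of theirs in untreated Dnm2 S619L/+ mice, 0.902% ± 0.519 in treated ones, 0.571% ± 0.567 in untreated Bin1 mck-/- mice and 0.0766% ± 0.0294 in treated ones. These shares depend on the length used, because the 31 codons of *Sln* are short beside its 1318 exon bases, and per kilobase of coding sequence they were 7.85%, 11%, 6.93% and 0.93%. RNA levels do not give protein levels, which were not part of these files.

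For each of the 5 genes, the 3 genes with the most similar pattern were sought by Pearson correlation of log2 CPM, over 16 mice and 11364 genes in the Dnm2 cohort and over 12 mice and 11053 genes in the Bin1 cohort. The mice of a cohort fall into groups that differ in genotype and treatment, so these values are descriptions. *Sln* was most like *Atp13a3*, *Mfsd7a* and *Zfp365* in the Dnm2 cohort (r = 0.96 each) and like *Eda2r* (0.96), *Vwa5a* (0.95) and *Anxa4* (0.94) in the Bin1 cohort, and *Eda2r* had r = 0.92 with *Sln* in the Dnm2 cohort too. *Atp2a1* was most like *Rtn2* (r = 0.96), the creatine kinase gene *Ckm* (0.93) and *Anapc5* (0.92) in the Dnm2 cohort, which had 0.92, 0.94 and 0.95 in the Bin1 cohort, where *Foxo4*, *Tmem38a* and *Maf* had the highest values (0.97 each). In the Dnm2 cohort these last genes had r = 0.58, 0.91 and 0.20 with *Atp2a1*, so likeness in a cohort did not always carry over to the other. *Atp2a2* was most like *Ncam1*, *Mgp* and *Rnase4* in the Dnm2 cohort (r = 0.94 each, against 0.38, 0.53 and 0.47 in the Bin1 cohort) and like *Man2a1* (0.95), *Slk* (0.94) and *Pcf11* (0.88) in the Bin1 cohort. *Atp2a3* was most like *Als2cl* (r = 0.88), *Pip5k1c* (0.87) and *Slco2b1* (0.87) in the Dnm2 cohort and *Cacna1h* (0.92), *Prag1* (0.90) and *Sh3bp4* (0.90) in the Bin1 cohort. *Pln* was most like *Dnm3* (r = 0.88), *Lats1* (0.87) and *Plin3* (0.85) in the Dnm2 cohort, which had -0.56, -0.42 and 0.01 in the Bin1 cohort, where *Adap2* (0.91), *Spry1* (0.88) and *Elk3* (0.88) were closest.

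The surroundings of the pumps were read from 13 gene lists with 129 genes, of which 121 were tested in the Dnm2 cohort and 116 in the Bin1 cohort. The lists were chosen with earlier results of these data known, so their counts are not independent of these data. Other regulators of SERCA were *Hrc* and *S100a1*, calcium-binding proteins of the fiber, *Mrln* (myoregulin), a relative of sarcolipin in function, and *Hax1*, which binds phospholamban. *Hrc* was the most abundant of them, with group means from 830 to 1311 CPM, *S100a1* was at 65.3 to 148, *Mrln* at 14.0 to 34.3 and *Hax1* at 4.74 to 6.77 CPM. *Strit1* and *Smim6* had group means between 0.0133 and 0.191 CPM and were not tested, and *Arln* was not found among the gene names.

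On placebo, Dnm2 S619L/+ muscle had higher levels of 8 of 13 embryonic and denervation genes and of 5 of 9 slow contractile genes than WT muscle, and lower levels of 5 of 8 endothelial and platelet and of 3 of 6 smooth muscle markers. Of 13 embryonic, denervation and regeneration genes 8 rose, among them *Runx1* (log2 3.36, SE 0.33), a transcription factor of denervated muscle, *Myog* (2.83, SE 0.42), the regulator of muscle differentiation, *Ncam1* (2.37, SE 0.43), an adhesion molecule of denervated fibers, and *Gadd45a* (1.86, SE 0.23), beside 12.1% of all 15439 tested genes that rose and 9.81% that fell. The list median was 1.86 against 0.02 for all genes. Of 9 slow contractile genes 5 rose, such as the slow troponins *Tnni1* (3.31, SE 0.67), *Tnnt1* (1.92, SE 0.45) and *Tnnc1* (2.11, SE 0.52), while the slow light chain *Myl3* fell by 1.95 (SE 0.39), and the median was 1.92. The 5 became 3 without mouse 2 of the WT placebo group. Of 10 fast contractile genes 2 fell, the myosins *Myh2* (-1.80, SE 0.32) and *Myh4* (-0.75, SE 0.24), with a median of -0.35, and 1 was called without mouse 1 or 4 of the Dnm2 S619L/+ placebo group or mouse 1, 2 or 3 of the WT placebo group. This comparison brought *Sln* to attention, so nothing about the 5 genes is read from these counts.

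Calcium-handling genes moved in both directions in the same comparison. Of 18 genes of the calcium store and its release 1 rose, *Jsrp1* (0.60, SE 0.18), and 5 fell, among them sarcalumenin *Srl* (-0.49, SE 0.13), the junctophilin *Jph1* (-0.57, SE 0.18) and the ryanodine receptor *Ryr3* (-1.50, SE 0.56), with a median of -0.22. With 1 mouse left out the 5 ranged from 0, without mouse 2 of the WT placebo group, to 6, and 9 of the 16 mice moved it by over 1.5 times, while *Jsrp1* was not called without mouse 2 of the Dnm2 S619L/+ placebo group or mouse 2 or 3 of the WT placebo group. Of 17 other calcium pumps, exchangers, entry and buffer genes 6 rose and 3 fell (0 to 3 with 1 mouse left out), with a median of -0.10, and those that rose included the mitochondrial calcium uptake genes *Micu2* (0.74, SE 0.13) and *Mcu* (0.46, SE 0.11) and the entry channel *Orai1* (0.78, SE 0.20). Of 11 calcineurin and NFAT genes 2 rose, the transcription factor *Nfatc2* (1.04, SE 0.14) and the calcineurin target *Rcan1* (1.30, SE 0.26), with a median of -0.05. None of the 4 tested regulators of SERCA passed edgeR, 1 had an unadjusted p under 0.05, and DESeq2 called 1 lower, with a median of -0.24. *Hrc* was at -0.37 (SE 0.13, edgeR adjusted p = 0.0513).

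Marker genes of other cells moved as well. Of 6 leukocyte markers 3 rose (*Lyz2* 1.45, SE 0.37, *Itgam* 1.27, SE 0.43, and *Ptprc* 1.92, SE 0.67, median 1.28), and DESeq2 called 5. This count was 1 without any of the 4 mice of the WT placebo group or without mouse 4 of the Dnm2 S619L/+ placebo group, and 5 without mouse 3 of that group or mouse 4 of the Dnm2 S619L/+ tamoxifen group. Of 8 endothelial and platelet markers 5 fell, such as *Vwf* (-0.70, SE 0.14), *Pecam1* (-0.92, SE 0.21) and *Emcn* (-0.92, SE 0.24), and the platelet integrin *Itga2b* rose by 1.23 (SE 0.24), with a median of -0.92, and the 5 became 3 without mouse 2 of the Dnm2 S619L/+ placebo group. All 3 called smooth muscle markers of 6 fell, *Myh11* (-1.17, SE 0.16), *Lmod1* (-0.99, SE 0.20) and *Acta2* (-0.75, SE 0.21), with a median of -0.64. Of 5 tested cardiac genes 2 rose, *Myl4* (2.31, SE 0.33) and *Tnnt2* (1.16, SE 0.33), with a median of 1.16, and the 2 became 1 without mouse 1 or 2 of the Dnm2 S619L/+ placebo group or mouse 2 or 3 of the WT placebo group. Of 8 bone markers *Alpl* fell by 1.56 (SE 0.41, median -0.35), and of 6 muscle markers *Des* rose by 0.96 (SE 0.20, median -0.22). Over the 13 lists 29 genes rose and 20 fell with edgeR, and DESeq2 called 33 and 25. With edgeR these were 24.0% and 16.5% of the 121 tested list genes, beside 12.1% and 9.81% of all genes. The 20 became 13 without mouse 2 and 11 without mouse 4 of the Dnm2 S619L/+ placebo group, and 11 without mouse 2 and 13 without mouse 3 of the WT placebo group. The 29 stayed between 21 and 35.

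In 1 of the untreated mutant mice low *Sln* and *Atp2a2* came with low embryonic and slow sums. In untreated Dnm2 S619L/+ mice the embryonic list summed to 354, 414, 210 and 293 CPM, the slow list to 411, 523, 126 and 306 CPM and the endothelial list to 250, 205, 464 and 179 CPM, for mice 1 to 4. The order of the mice on the embryonic and slow lists differed from that of *Sln*, since mouse 2 had the highest sums and *Sln* at 55.0 CPM. Mouse 3, with the lowest *Sln* (12.4 CPM) and *Atp2a2* (45.8 CPM) of its group, had the lowest embryonic, slow and leukocyte (69.0 CPM) sums and the highest endothelial, smooth muscle (308 CPM), cardiac, bone, store and calcineurin sums. WT mice on placebo averaged 94.7 CPM on the embryonic list, 230 on the slow list and 534 on the endothelial list, whose most abundant genes were *Gadd45a*, *Myoz2* and *Cdh5*, with reads for each listed gene. Cardiac genes, another known site of sarcolipin and phospholamban, summed to 437, 210, 1081 and 333 CPM, against 1126, 637, 518 and 1913 CPM in WT mice on placebo, although 2 cardiac genes rose. Of the cardiac genes *Actc1* was the most abundant, and the listed genes *Nppa* and *Nppb* had no reads in any mouse of the 4 groups of the Dnm2 cohort. In the Bin1 cohort *Nppb* had no reads either, while *Nppa* had reads in each group. The part of these cell types and programs in the levels of the 5 genes was not tested.

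Tamoxifen in WT muscle came with a higher level of *Atp2a2*, lower levels of 2 other SERCA regulators and higher levels of bone and leukocyte markers. With edgeR 1 of 4 tested members rose (*Atp2a2*), beside 15.8% of all genes that rose, and none fell, beside 11.9% that fell, and the same held at an unadjusted p under 0.05 and with DESeq2. A share of 1 in 4 against this background says little about the family. Of the 4 tested other regulators 2 fell and none rose with edgeR or DESeq2: *S100a1*, which binds and activates the pump in heart, by 0.85 (SE 0.14, edgeR adjusted p = 0.000622), from 118 ± 13.7 to 65.3 ± 8.05 CPM, and *Hrc*, the histidine-rich calcium-binding protein of the store, by 0.43 (SE 0.13, edgeR adjusted p = 0.0206). The list median was -0.39 against -0.04 for all genes. Muscle markers had a median of -0.40 and fast contractile genes one of -0.42, so the fall of *Hrc* was near that of these lists. On plain totals the median of all genes was 0.25, and *Hrc* was not computed on that scale. This count of 2 became 1 without mouse 2 or 3 of the WT placebo group or mouse 2 or 4 of the WT tamoxifen group.

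Of the calcium store, other calcium and calcineurin genes most were not called in treated WT mice. Their list medians, from -0.23 to -0.10, were smaller than the shift of the median of all genes between TMM (-0.04) and plain totals (0.25). Beside 11.9% of all genes that fell, 3 of 18, 3 of 17 and 2 of 11 lower genes say little about these lists. Of 18 store genes 3 fell, *Srl* (-0.67, SE 0.13), the potassium channel *Tmem38a* (-0.46, SE 0.14) and *Jsrp1* (-0.57, SE 0.18), and *Ryr3* rose by 2.29 (SE 0.47), with a median of -0.17, and the 3 ranged from 1 to 5 with 1 mouse left out. Of 17 other calcium genes 3 fell, the exchanger *Slc8a3* (-0.57, SE 0.15), the store sensor *Stim1* (-0.38, SE 0.11) and the plasma membrane pump *Atp2b3* (-0.50, SE 0.15), with a median of -0.23, or 1 without mouse 3 of the WT placebo group, and none rose with edgeR, while DESeq2 called 1 higher and 6 had an unadjusted p under 0.05. Of 11 calcineurin and NFAT genes *Nfatc4* rose by 1.81 (SE 0.39) and *Rcan2* (-0.71, SE 0.14) and *Myoz1* (-0.52, SE 0.16) fell, with a median of -0.10, and 4 of the 16 mice, left out, took the 2 that fell to 1. Fast contractile genes had a median of -0.42, and 2 of 10 fell, *Tnnc2* (-0.49, SE 0.15) and *Myh2* (-0.88, SE 0.31), where DESeq2 called 6 and leaving out 1 mouse gave 0 to 6. None of 9 slow contractile genes passed edgeR (median -0.09), with 0 at an unadjusted p under 0.05 and 0 with DESeq2. None of 6 muscle markers passed edgeR (median -0.40), 5 had an unadjusted p under 0.05, and DESeq2 called 2 lower.

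Among embryonic and denervation genes *Runx1* (3.27, SE 0.32) and *Ncam1* (2.29, SE 0.43) rose while the acetylcholine receptor genes *Chrna1* (-1.86, SE 0.34) and *Chrnd* (-2.24, SE 0.61) fell, with a median of -0.01 over 13 genes. Of 8 bone markers 7 rose, such as *Tnn* (11.06, SE 1.11), *Mmp13* (10.42, SE 1.2), *Sp7* (7.37, SE 0.91), the bone-forming cell regulator, and *Ibsp* (9.45, SE 1.29), with a median of 6. With the filter of more than 10 reads in 90% of mice 1 bone marker was called higher, and 12 list genes in place of 18. On placebo *Alpl* made up 38.6 of the mean bone sum of 40.6 CPM. The log2 values of the other bone markers therefore rest on low placebo levels and are not exact. Of 6 leukocyte markers 5 rose, among them *Cd68* (2.49, SE 0.43), *Csf1r* (2.14, SE 0.39), *Adgre1* (1.66, SE 0.47) and *Lyz2* (1.30, SE 0.37), with a median of 1.53, and the 5 became 3 without mouse 3 of the WT placebo group or mouse 2 of the WT tamoxifen group. Cardiac *Myl4* rose by 1.16 (SE 0.32) and *Actc1* fell by 1.57 (SE 0.53), with a median of -0.33 over 5 genes. The smooth muscle gene *Cnn1* fell by 1.03 (SE 0.37, median of 6 genes -0.19), and *Itga2b* rose by 0.91 (SE 0.24, median of 8 endothelial and platelet markers -0.42). The calls of *Actc1* and *Cnn1* were lost in 7 and 8 of the 16 fits with 1 mouse left out. In all 18 list genes rose and 16 fell with edgeR, DESeq2 called 20 and 23, and a fit of the 2 groups called 23 and 26, with 6 fast genes and 4 muscle markers lower. The 16 became 10 without mouse 3 of the WT placebo group, 10 and 8 without mouse 1 and mouse 2 of the WT tamoxifen group and 26 without mouse 4 of the Dnm2 S619L/+ tamoxifen group, and the 18 stayed between 16 and 22.

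Bone marker sums accompanied the rise of *Atp2a2* in WT. They were 43.9, 29.9, 30.7 and 58.2 CPM in WT mice on placebo and 2409, 2788, 1214 and 1373 CPM on tamoxifen, where *Mmp13*, a collagenase of bone and cartilage, was the most abundant at a mean of 874 CPM. Leukocyte sums were 74.3, 69.2, 45.1 and 59.6 CPM on placebo and 211, 277, 146 and 147 CPM on tamoxifen, with *Lyz2* the most abundant at 37.4 and 92.1 CPM. Every listed bone and leukocyte gene had reads in these groups. Within the treated WT mice the order of the bone sums, from mouse 2 through mice 1 and 4 to mouse 3, was also that of *Atp2a2*, at 77.2, 73.7, 68.1 and 65.1 CPM. The leukocyte sums of these mice had the same order. In the other tamoxifen groups the bone sums and *Atp2a2* did not share an order. Of treated Bin1 mck-/- mice, mouse 3 had the highest *Atp2a2* (85.7 CPM) with the lowest bone (18.3 CPM) and leukocyte (42.3 CPM) sums. Mouse 2 of that group, with a bone sum of 755 CPM, had *Atp2a2* at 63.7 CPM. Dnm2 S619L/+ mice on placebo had bone sums of 16.3, 11.8, 19.9 and 14.4 CPM. The part of bone and blood cells in the rise of *Atp2a2* was not tested.

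Tamoxifen in Dnm2 S619L/+ muscle left the tested members without a call. With edgeR 0 of 4 rose, beside 5.22% of all genes that rose, and 0 of 4 fell, beside 3.05% that fell, with 0 at an unadjusted p under 0.05 and 0 with DESeq2. Of the other regulators *S100a1* fell by 0.73 (SE 0.14, edgeR adjusted p = 0.00631), from 132 ± 25.4 to 79.6 ± 8.18 CPM, and the median of the 4 was -0.28 against -0.03 for all genes. Of 18 store genes *Ryr3* (3.17, SE 0.54) and the inositol trisphosphate receptor *Itpr1* (1.09, SE 0.28) rose and *Jsrp1* (-0.62, SE 0.18) fell, with a median of -0.17. This list had 0 genes lower without any 1 of 13 of the 16 mice, and 6 without mouse 4 of the treated mutant group, and the 2 that rose became 1 without any 1 of 5 mice. *Rcan1* fell by 1.09 (SE 0.26, median of the calcineurin list -0.15), *Myl3* rose by 1.57 (SE 0.39, median of the slow list -0.71), the neonatal myosin *Myh8* rose by 0.97 (SE 0.19, median of the embryonic list 0.02) and *Actc1* fell by 1.97 (SE 0.54, median of the cardiac list -0.66). Leaving out mouse 2 or 3 of the treated group lost the calls of *Rcan1*, *Myl3* and *Actc1*, and that of *Actc1* was also lost without mouse 1 or 4 of that group or mouse 3 of the Dnm2 S619L/+ placebo group. In a fit of the 2 groups none of the genes of this paragraph was called.

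Of 8 bone markers 7 rose in that comparison, among them *Tnn* (10.31, SE 1.14), *Mmp13* (10.09, SE 1.21), *Sp7* (7.23, SE 1.1) and *Alpl* (3.19, SE 0.43), with a median of 6.09. The 7 became 1 with the filter of more than 10 reads in 90% of mice. In untreated mutant mice the bone sum averaged 15.6 CPM, most of it from *Alpl*. The log2 values of the other bone markers therefore rest on low placebo levels and are not exact. Bone sums were 798, 1750, 2017 and 69.7 CPM in the 4 treated mutant mice, and mouse 4, at 69.7 CPM, also had the lowest *Sln* (34.4 CPM) and *Atp2a2* (55.2 CPM) of its group. The other mice did not follow that order, since mouse 3 had the highest bone sum with *Atp2a2* at 75.7 CPM and mouse 1 the highest *Sln* (144 CPM). Mouse 4 also had the lowest leukocyte (84.1 CPM), endothelial (306 CPM), smooth muscle and cardiac sums and the highest muscle (85570 CPM), fast (97105 CPM), slow and calcium-handling sums of its group, and the part of these in the levels was not tested. In the remaining 6 lists none of 53 genes passed edgeR, 14 had an unadjusted p under 0.05, and DESeq2 called 3. Their medians were -0.18 for other calcium genes, -0.28 for fast contractile genes, 0.32 for smooth muscle, 0.13 for leukocytes, 0.38 for endothelium and platelets and -0.05 for muscle markers. In all 11 list genes rose and 4 fell with edgeR, and DESeq2 called 13 and 8. With edgeR these were 9.09% and 3.31% of the 121 tested list genes, beside 5.22% and 3.05% of all genes. An edgeR fit of the 2 groups called 30 genes in place of 1277, and of the lists 3 bone markers higher and 0 genes lower, while the filter of more than 10 reads in 90% of mice left 4 higher and 3 lower. The 4 became 2, 1, 1 and 15 without mouse 1, 2, 3 and 4 of the treated mutant group, and the 11 stayed between 8 and 16.

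On tamoxifen, Dnm2 S619L/+ muscle had higher levels of *Sln* and of 7 of 13 embryonic, denervation and regeneration genes than WT muscle. With edgeR 1 of the 5 members rose (*Sln*), beside 2.18% of all genes that rose, and none fell, beside 0.518% that fell, with none lower at an unadjusted p under 0.05 or with DESeq2. Of 13 embryonic and denervation genes 7 rose, among them *Gadd45a* (2.01, SE 0.24), *Chrna1* (2.45, SE 0.34), *Myog* (2.99, SE 0.43) and the fusion peptide gene *Mymx* (3.87, SE 1.07), with a median of 2.01 against -0.03 for all genes. The 7 became 4 with the filter of more than 10 reads in 90% of mice. They were 5 with no filter and 5 in a fit of the 2 groups. Further rises included those of *Micu2* (0.56, SE 0.13) among 17 other calcium genes (median 0.04), *Nfatc2* (0.64, SE 0.14) among 11 calcineurin and NFAT genes (median -0.05) and *Tnni1* (2.62, SE 0.66) among 9 slow genes (median 1), and *Tnni1* was not called in 10 of the 16 fits with 1 mouse left out. The calls of the other calcium list ranged from 0, without mouse 1 of the treated WT group, to 4, without mouse 4 of that group, and *Nfatc2* was not called without mouse 1 of the treated mutant group.

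The 9 lists without a call in that comparison held 71 tested genes, of which 0 passed edgeR, 12 had an unadjusted p under 0.05 and DESeq2 called 1. Medians were -0.18 for the other SERCA regulators, -0.11 for the store, -0.13 for fast, -0.37 for cardiac, -0.05 for smooth muscle, -0.16 for leukocyte, -0.03 for endothelial, -0.65 for bone and 0.15 for muscle genes. Embryonic sums were 126, 134, 107 and 133 CPM in treated WT mice and 355, 249, 277 and 272 CPM in treated mutant mice, where mouse 1 of the mutants was highest in both that sum and *Sln* (144 CPM) but the lowest sum was that of mouse 2 and the lowest *Sln* that of mouse 4 (34.4 CPM). Leukocyte sums overlapped at 146 to 277 and 84.1 to 210 CPM. The part of these programs in the rise of *Sln* was not tested. The 11 list genes that rose became 7 without mouse 1 of the treated mutant group and 7 without mouse 1 or mouse 2 of the treated WT group, 1 gene was lower without mouse 4 of the treated mutant group, and DESeq2 called 13 higher and 0 lower.

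The interaction asked whether tamoxifen acted differently in the 2 genotypes of the Dnm2 cohort. With edgeR 0 of the 4 tested members passed, where 0.0324% of all genes were higher and 0.227% lower, with 1 at an unadjusted p under 0.05 (*Atp2a2*) and 0 with DESeq2. Over all genes the 40 edgeR calls became 1 without mouse 1 of the WT tamoxifen group and 293 without mouse 3 of the Dnm2 S619L/+ placebo group. Among the lists *Runx1* passed (-2.70, SE 0.42, edgeR adjusted p = 0.0248), since it rose with tamoxifen in WT from 2.06 ± 1.16 to 21.4 ± 5.09 CPM and stood at 22.8 ± 4.76 and 34.0 ± 9.71 CPM in untreated and treated mutant mice. With the replicate block this call was lost and 0 list genes passed. In the other 12 lists none of 108 genes passed edgeR, 23 had an unadjusted p under 0.05 and DESeq2 called 5. Medians were 0.10 for SERCA regulators, 0.09 for the store, -0.08 for other calcium genes, -0.69 for slow, 0.17 for fast, 0.17 for embryonic, -0.40 for cardiac, 0.58 for smooth muscle, -1.46 for leukocyte, 0.82 for endothelial, -0.24 for bone and 0.33 for muscle genes, against -0.01 for all genes, and that of the calcineurin list was 0. The call of *Runx1* was absent, with 0 list genes lower, without mouse 1, 2 or 4 of the Dnm2 S619L/+ placebo group, mouse 1 or 2 of the Dnm2 S619L/+ tamoxifen group, mouse 1 or 2 of the WT placebo group and mouse 1 or 2 of the WT tamoxifen group, and 3 were higher and 3 lower without mouse 3 of the Dnm2 S619L/+ placebo group.

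In Bin1 mck-/- muscle on placebo, *Sln* rose, as did 4 of 6 leukocyte markers and 3 of 12 embryonic and denervation genes. With edgeR 1 of 5 members rose (*Sln*), beside 1.99% of all 14841 genes that rose, and none fell, beside 0.627% that fell, with 1 lower at an unadjusted p under 0.05 (*Atp2a1*) and 0 with DESeq2. Of 12 tested embryonic and denervation genes 3 rose, *Runx1* (2.37, SE 0.55), *Myog* (2.26, SE 0.36) and *Ncam1* (1.97, SE 0.41), with a median of 0.92 against 0.01 for all genes, and this count was 0 to 5 with 1 mouse left out. Of 6 leukocyte markers 4 rose, *Ptprc* (1.95, SE 0.32), *Adgre1* (2.14, SE 0.39), *Cd68* (2.58, SE 0.50) and *Itgam* (1.61, SE 0.42), with a median of 1.84, and this count was 0 to 6 with 1 mouse left out. The main calcium buffer of the store, calsequestrin *Casq1*, fell by 0.87 (SE 0.20, median of 18 store genes -0.16), and the cytosolic buffer parvalbumin *Pvalb* fell by 1.12 (SE 0.28), while *Micu2* (0.67, SE 0.14) and the uniporter subunit *Mcub* (1.51, SE 0.40) rose (median of 17 other calcium genes -0.14). The fast-fiber genes *Actn3* (-1.05, SE 0.24) and *Mybpc2* (-0.97, SE 0.24) fell (median of 10 genes -0.38), *Myl3* fell by 1.6 (SE 0.25, median of 9 slow genes -0.06), and *Cnn1* rose by 1.28 (SE 0.29, median of 6 smooth muscle genes 0.17). With 1 mouse left out the genes called lower were 0 to 4 for the store and 0 to 2 for fast fibers, and those higher 0 to 3 for other calcium genes. The calls of *Pvalb* and *Cnn1* were each lost in 7 of the 12 fits with 1 mouse left out, and that of *Myl3* without WT mouse 8.

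In the 6 lists without a call none of 38 genes passed edgeR, 10 had an unadjusted p under 0.05 and DESeq2 called 7. Medians were -0.02 for SERCA regulators, 0.04 for calcineurin and NFAT, -0.22 for cardiac, -0.24 for endothelial, 0.49 for the 4 tested bone and -0.23 for muscle genes. These counts rest on few mice. The 10 list genes that rose became 4, 3, 19 and 2 without mouse 1, 2, 3 and 4 of the untreated Bin1 mck-/- group, 4, 1, 3 and 0 without mouse 5, 6, 7 and 8 of the WT group and 16 without mouse 4 of the treated group. The 5 that fell became 1 without mouse 1, 2 or 4 of the untreated Bin1 mck-/- group, 1 without mouse 6 or 7 and 0 without mouse 8 of the WT group, and 3, 10 and 9 without mouse 1, 2 and 3 of the treated group. DESeq2 called 21 higher and 11 lower, and an edgeR fit of the 2 groups 18 and 13. Over all genes the 388 calls were 1458 in that fit, and with 1 mouse left out they ranged from 18 without WT mouse 8 to 759 without mouse 2 of the treated group.

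Embryonic and leukocyte sums of untreated Bin1 mck-/- mice had their lowest and highest values in the same mice as *Sln*. The embryonic sums were 197, 235, 125 and 273 CPM and the leukocyte sums 136, 175, 112 and 221 CPM for mice 1 to 4, against means of 115 and 46.1 CPM in WT, and in both the lowest value was that of mouse 3 and the highest that of mouse 4, as for *Sln* (15.2 and 107 CPM). *Gadd45a* and *Lyz2* were the most abundant genes of these lists. Bone sums were 30.1, 35.6, 38.6 and 25.3 CPM, with *Alpl* the most abundant and no reads of *Ibsp*. Their part in the level of *Sln* was not tested.

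**Figure D3:**
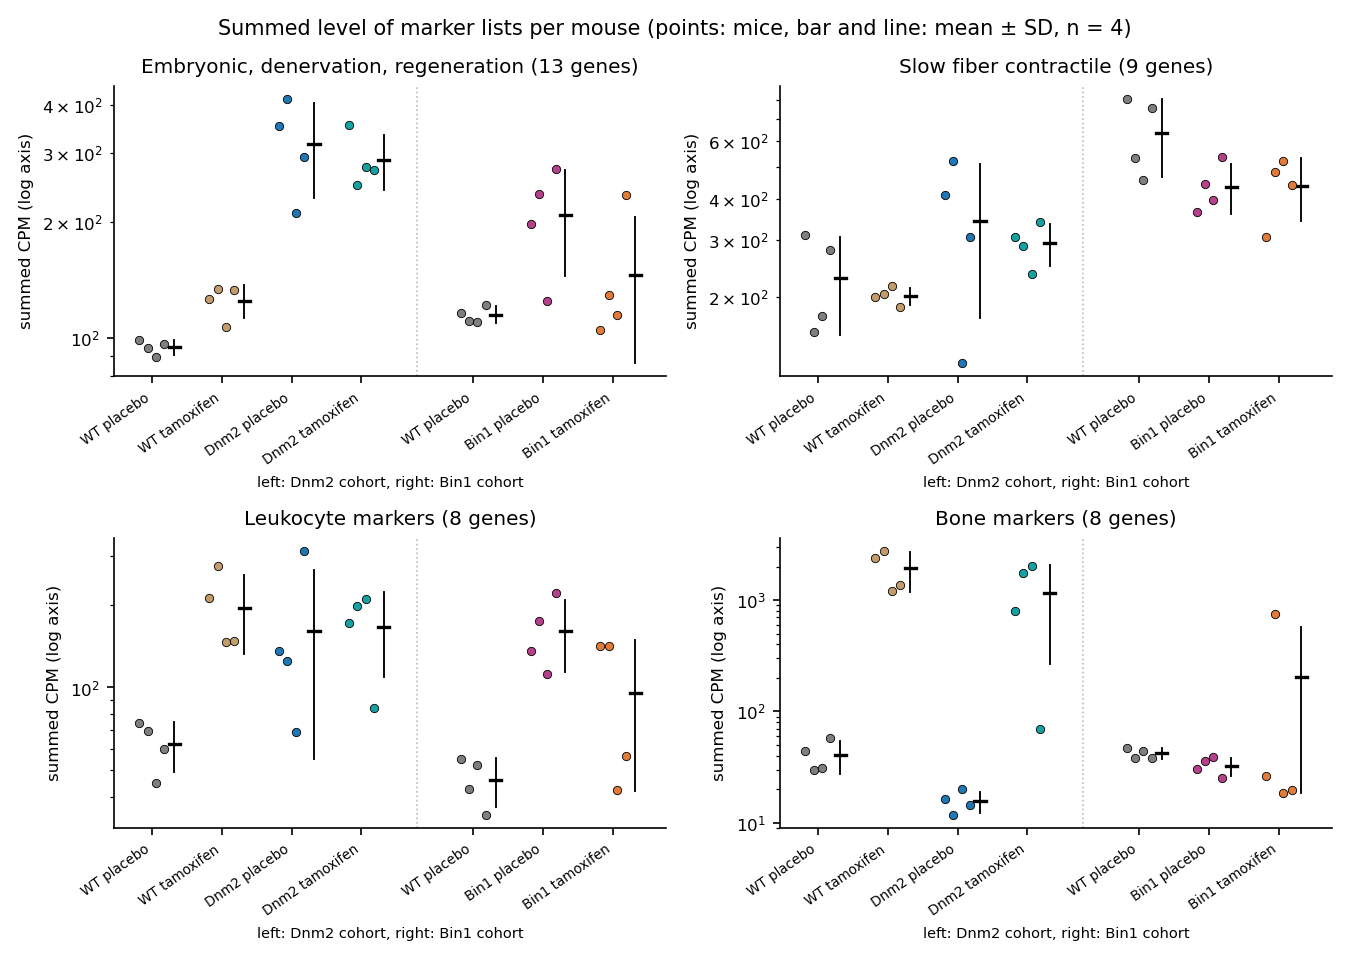
Summed CPM of 4 gene lists in each of the 28 mice, on log axes, by group (points are mice, the wide bar is the mean and the line the SD, n = 4; where the SD reaches below 0 the line starts at the lowest mouse). The embryonic, denervation and regeneration sum averages 94.7 CPM in WT and 318 CPM in Dnm2 S619L/+ mice on placebo, and the bone sum is between 1214 and 2788 CPM in the 4 WT mice on tamoxifen.

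Tamoxifen in Bin1 mck-/- muscle came with rises of 2 fast-fiber genes and falls of 2 receptor genes, while no member passed. With edgeR 0 of 5 members rose, beside 1.52% of all genes that rose, and 0 of 5 fell, beside 1.61% that fell, where 1 (*Sln*) had an unadjusted p under 0.05 and was called lower by DESeq2. The fast-fiber genes *Actn3* (1.05, SE 0.24) and *Mybpc2* (0.99, SE 0.24) rose (median of 10 genes 0.56), where DESeq2 called 7 and leaving out 1 mouse gave 0 to 8, and so did *Pvalb* (1.33, SE 0.28, median of 17 other calcium genes -0.10) and *Jph1* (0.86, SE 0.20, median of 18 store genes 0.18). *Chrna1* (-1.19, SE 0.23) and *Chrnd* (-2.67, SE 0.52) fell (median of 12 embryonic and denervation genes -1.04, 0 to 4 called with 1 mouse left out), as did *Rcan2* (-0.76, SE 0.10) of the calcineurin list and *Cnn1* (-1.86, SE 0.30) of the smooth muscle list (median -0.41). The median of the calcineurin list was 0, as was that of all genes. With 1 mouse left out the rises were 0 to 2 for other calcium genes and 0 to 3 for the store.

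In 7 lists none of 42 genes passed edgeR, 12 had an unadjusted p under 0.05 and DESeq2 called 7. Medians were -0.01 for SERCA regulators, 0.07 for slow, 0.41 for cardiac, -0.88 for leukocyte, -0.26 for endothelial, 0.01 for bone and 0.15 for muscle genes. Embryonic sums were 105, 129, 115 and 234 CPM in treated mice, with the highest value in mouse 4, which also had the highest *Sln* (18.1 CPM), and leukocyte sums were 141, 142, 42.3 and 56.4 CPM. Bone sums were 26.5, 755, 18.3 and 19.8 CPM, so that mouse 2 alone of the 4 treated mice had a high bone sum, and its *Sln*, at 7.89 CPM, lay within its group. Their part in the level of *Sln* was not tested. Over the lists 4 genes rose and 4 fell with edgeR, and DESeq2 called 18 and 15. With edgeR each was 3.45% of the 116 tested list genes, beside 1.52% of all genes higher and 1.61% lower. An edgeR fit of the 2 groups called 0 higher and 2 lower, 1 each of the calcineurin and smooth muscle lists, with 122 calls over all genes in place of 464. The 4 that rose became 1, 0 and 0 without mouse 1, 2 and 4 of the untreated group and 19, 0 and 0 without mouse 2, 3 and 4 of the treated group, and the 4 that fell became 7 and 2 without mouse 2 and mouse 3 of the treated group.

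Between treated Bin1 mck-/- muscle and WT muscle 126 genes passed edgeR. This number ranged from 42 without WT mouse 5 to 266 without mouse 3 of the treated group, and DESeq2 called 521. With edgeR 0 of 5 members rose, beside 0.465% of all genes that rose, and 0 of 5 fell, beside 0.384% that fell, while 2 had an unadjusted p under 0.05 (*Sln* higher and *Pln* lower) and DESeq2 called 1 (*Sln*). Of the list genes *Rcan2* (-0.72, SE 0.10, median of the calcineurin list -0.02), *Myh2* (-1.88, SE 0.36, median of the fast list 0.17) and *Myl3* (-1.27, SE 0.25, median of the slow list 0.32) fell. In the other 10 lists none of 86 genes passed edgeR, 24 had an unadjusted p under 0.05 and DESeq2 called 8. Medians were 0.01 for SERCA regulators, -0.02 for the store, 0.01 for other calcium genes, 0.41 for embryonic, 0.18 for cardiac, -0.27 for smooth muscle, 1.03 for leukocyte, -0.50 for endothelial, 0.76 for bone and 0.01 for muscle genes, against 0.03 for all genes. The 3 that fell became 1 without mouse 1, 3 or 4 of the treated group or mouse 5, 6 or 8 of the WT group, and the calls of *Myl3* and *Myh2* were lost in 8 and 7 of the 12 fits with 1 mouse left out. In the other direction, 1 rose without mouse 4 of the untreated group and 3 without mouse 3 of the treated group, and DESeq2 called 4 higher and 7 lower. A larger number of calls in one comparison than in another does not show that the effects differ, which was not tested.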

How the data were processed

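RNA was sequenced from tibialis anterior muscle of 28 mice with a stranded polyA kit. The authors deposited raw read counts per gene, 1 table per cohort. Per the submitters' processing notes these were made with bcl2fastq 2.20.0.422, cutadapt 1.10, Bowtie 1.2.2, STAR 2.5.3 and HTSeq 0.6.1p1 on build mm39, and the strand setting of the counting is not given. Gene names and lengths came from GENCODE M21 on GRCm38, an older build than that of the counts, which named 52083 identifiers in each table. The Bin1 table holds 4 non-gene lines, a median of 23.9% of its counts per mouse, which were left out of library sizes and tests.

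Each cohort was fitted once with edgeR 4.0.16 (R 4.3.3, limma 3.58.1): TMM scaling, the default low-count filter, robust quasi-likelihood tests, prior count 2, and p-values adjusted by Benjamini and Hochberg over all tested genes with a threshold of 0.05. The SE is the absolute log2 fold change over the square root of F, and CPM are counts scaled to TMM library sizes. The fit was tested on simulated data with the same spread for all genes and changes in well-covered genes only. That test does not cover genes as low and variable as *Sln*. Tables and plots were made with Python 3.11.15, numpy 2.4.6, pandas 2.3.3 and matplotlib 3.10.9. Alternatives were DESeq2 1.42.0, RLE scaling, plain library totals, library sizes without mitochondrial reads, no filter, a filter of more than 10 reads in 90% of mice, fits of the compared groups only, a block on replicate number, leaving out each mouse, and coding in place of exon length.

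The members and the 13 lists were chosen with earlier results of these data known. Named genes are the 5 members, Bin1 and Dnm2, from each list up to 4 called genes with the smallest p per comparison, or up to 2 where none was called, the most abundant gene of each marker list, and the 3 genes most like each member per cohort. Genes of the muscle marker list, of list definitions and genes that overlap a member are named as descriptions of lists and annotation. A gene that this rule would name is not reported here.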

Additional observations from a re-analysis of the deposited data

Results flagged for a closer look

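The highest value of *Atp2a2* among WT mice of the Bin1 cohort stood apart from the rest of its group. Mouse 5 had 57.2 CPM, while the other 3 mice had between 35 and 38.7 CPM. The gap to the next mouse was 0.834 of the range of the group, above the critical ratio for groups of 4. This ratio was computed for the 35 groups of 4 values of the 5 genes, and 1 stood out, where chance alone is set to single out about 1 in 20 groups. The cause was not tested.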

How the results depend on the processing

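Of 265 fitted log2 fold changes of the 5 genes under other settings, 261 kept their sign and, where tested, their side of the threshold, and 55 of the 265 belong to differences with no test. The fits include no fit with plain totals, and those with library sizes without mitochondrial reads are nearly the same by construction, since TMM undoes the change of library size, so they say nothing about scale. Ratios of means on other scales turned sign for *Pln* in Bin1 mck-/- against WT on placebo (-0.15, and 0.01 without mitochondrial reads), *Atp2a1* in Dnm2 S619L/+ against WT on placebo (-0.13, and 0.13 with plain totals), *Atp2a2* for tamoxifen in Bin1 mck-/- mice (0.05, and -0.12 with plain totals) and *Atp2a3* for tamoxifen in WT (-0.10, and 0.17 with plain totals). Among the fits, the sign of *Atp2a2* for tamoxifen in Bin1 mck-/- mice turned to -0.02 with a replicate block in a fit of the 2 groups (edgeR adjusted p = 0.989). *Sln* passed with DESeq2 for tamoxifen in Bin1 mck-/- mice (-2.28) and for treated Bin1 mck-/- mice against WT (2.27), where it also passed in a fit of the compared groups (2.24). The causes were not tested.

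Of 580 values with 1 mouse left out, of which 128 belong to differences with no test, 553 kept their sign and, where tested, their side, 21 turned sign, 4 newly passed and 2 no longer passed. Ranges with a turned sign were -0.15 to 0.69 for *Sln* and -0.15 to 0.17 for *Atp2a2* with tamoxifen in Dnm2 S619L/+ mice. They were -0.13 to 0.24 for *Pln* and -0.23 to 0.02 for *Atp2a3* with tamoxifen in WT. For *Atp2a1* they were -0.22 to 0.04 for Dnm2 S619L/+ against WT on tamoxifen, -0.09 to 0.16 for the interaction and -0.19 to 0.01 for treated Bin1 mck-/- mice against WT. With tamoxifen in Bin1 mck-/- mice they were -0.23 to 0.23 for *Atp2a2* and -0.17 to 0.04 for *Atp2a3*. *Sln* ranged from 3.90 to 4.82 for Bin1 mck-/- against WT on placebo, from -2.65 to -1.66 for tamoxifen in Bin1 mck-/- mice and from 1.88 to 2.38 for treated Bin1 mck-/- mice against WT, and the interaction of *Atp2a2* from -0.91 to -0.59.

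Of 1378 list counts under other settings 1239 moved by no more than 1.5 times, among them the 208 of the fits without mitochondrial reads, which differ little by construction, and 2705 of 3016 did with 1 mouse left out. Many list counts were 0 in the main fit, and a count that stays at 0 is among the unmoved. These shares therefore say little about the lists with calls. Total calls were 388 for Bin1 mck-/- against WT on placebo and 1458 in a fit of those 2 groups, 464 and 122 for tamoxifen in Bin1 mck-/- mice, and 1277 and 30 for tamoxifen in Dnm2 S619L/+ mice. Coding in place of exon length moved 45 of 56 group means of per-kilobase ratios and shares by more than the SD of the group.

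Mice of different groups share replicate numbers. Deviations from the group means of mice with the same number correlated over 0.1 in 9 of 24 pairs of the Dnm2 cohort and in 1 of 4 pairs of the Bin1 cohort, so the numbers were not treated as pairs. A replicate block gave 2842 calls in place of 3382 for Dnm2 S619L/+ against WT on placebo and 3835 in place of 4273 for tamoxifen in WT. It gave 843 in place of 1277 for tamoxifen in Dnm2 S619L/+ mice, 364 in place of 417 between genotypes on tamoxifen, and 10 in place of 40 for the interaction. For tamoxifen in Bin1 mck-/- mice the block was used in the fit of the 2 groups, which gave 152 calls with it and 122 without it, and *Sln* was at -2.08 with it and -2.28 without it.

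The low counts of *Sln* in WT, down to 6 reads, limit the precision of its fold changes, and 4 mice per group limit all tests. Sex is not given in the labels, and the Bin1 cohort has no treated WT group.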
